A study of Arabidopsis thaliana with 12 samples.

Results

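AT3G18870, AT5G39980 and AT4G21170 are 3 nuclear genes of Arabidopsis thaliana annotated to families that act on organelle gene expression. AT3G18870 belongs to the mTERF family, and AT5G39980 and AT4G21170 encode pentatricopeptide repeat (PPR) proteins. They were chosen from the same measurements described here, because their signal was higher in high light, and each was found by its locus among the probes that name a single gene. The array table held 3439 probes, 692 of them naming 1 gene, and each of the 3 genes had 1 such probe. The RefSeq table of assembly TAIR10.1 lists all 3 by locus name alone. The sources used here name no genome build for the array, so positions are left out.

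Total RNA of wild-type plants of the Columbia 0 ecotype was measured in 12 samples. The 6 high light samples came from plants under light of 1000 µE for 1 h, and the 6 normal light samples from plants under light of 80 µE, titled 0 h. The labels name no tissue, plant age, array batch or source of the replicates, so the spread between samples of a group may be technical. No sample stayed in normal light for the hour, so light and elapsed time cannot be told apart, and neither can fewer cells of a type and less RNA per cell.

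Plastids and mitochondria keep small genomes of their own, and most of the proteins that read them out are made from nuclear genes. PPR proteins are built of short helical repeats that together bind a chosen stretch of organelle RNA, and members of the family take part in the splicing, editing, processing, stability and translation of single organelle transcripts. mTERF proteins are built of a related kind of helical repeat and bind organelle nucleic acids. They are named after an animal factor that ends transcription in mitochondria, and plant members act in organelle transcription and in intron splicing. Both families are far larger in land plants than in animals.

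The deposited values were intensities in an arbitrary unit, from 0 to about 100. The groups differed in their whole distribution. The median intensity of a sample lay between 0.338 and 0.357 in high light and between 0.115 and 0.130 in normal light. An exact 0 stood at 167 to 209 probes per sample in high light and at 396 to 470 in normal light. Each gene is therefore given as deposited, by its rank within the array, and after quantile normalisation, which puts all samples on 1 distribution. Normalised values of high light lay entirely above those of normal light for 14.5% of all probes, and deposited values did so for 44%. The separation of the groups that brought the 3 genes into view was thus common on the deposited scale. Of 22 marker genes listed for green tissue, seed, pollen and root, 0 had a single-gene probe, so the material could not be checked by markers.

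AT3G18870, the mTERF gene, had a deposited intensity of 1.47 at the lowest, 1.52 at the median and 1.65 at the highest in high light, against 0.0226, 0.0730 and 0.1995 in normal light. The groups did not overlap, and the lowest high light sample was 7.35 times the highest normal light sample. The means were 1.54 ± 0.077 in high light and 0.0907 ± 0.071 in normal light (SD, n = 6 each). The high light samples were close together, with a coefficient of variation of 5.01%, while that of the normal light samples was 78.1%. In normal light, samples 3 and 4 were the highest, at 0.1995 and 0.144, and samples 2, 5 and 6 the lowest, at 0.0226, 0.0446 and 0.0317. After quantile normalisation the gene had 1.26 ± 0.052 in high light and 0.181 ± 0.11 in normal light. The difference of the mean log2 values, used for all log2 differences and folds given here, was 3.04 (SE 0.372), or 8.25-fold, and it is not the ratio of the 2 means.

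AT5G39980, a PPR gene, had deposited intensities of 0.7795, 1.07 and 1.65 in high light, against 0.0132, 0.0541 and 0.113 in normal light, each as lowest, median and highest. The groups did not overlap, and the lowest high light sample was 6.90 times the highest normal light sample. The gene differed from the others in its spread in high light. There samples 5 and 6 stood at 1.57 and 1.65, samples 3 and 4 at 1.03 and 1.102, and samples 1 and 2 at 0.7795 and 0.964. In normal light samples 1 and 2 were instead the highest, at 0.113 and 0.106, and samples 3 and 4 the lowest, at 0.0307 and 0.0132. The means were 1.18 ± 0.348 in high light and 0.0618 ± 0.040 in normal light (SD, n = 6 each). The normalised means were 0.925 ± 0.267 in high light and 0.140 ± 0.069 in normal light. The mean log2 values differed by 2.82 (SE 0.337), or 7.08-fold.

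AT4G21170, the other PPR gene, had deposited intensities of 1.33, 1.59 and 1.83 in high light, against 0.0320, 0.215 and 0.276 in normal light, each as lowest, median and highest. Again the groups did not overlap, and the lowest high light sample was 4.84 times the highest normal light sample. Its normal light samples fell into 2 sets. Samples 1 and 2 stood at 0.0537 and 0.0320, and samples 3 to 6 between 0.207 and 0.276. The same samples 1 and 2 were the highest of normal light for AT5G39980, so low values in these samples were not shared by all 3 genes. The normalised means were 1.31 ± 0.116 in high light and 0.298 ± 0.1503 in normal light (SD, n = 6 each). The mean log2 values differed by 2.37 (SE 0.400), or 5.16-fold.

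**Figure D1:**
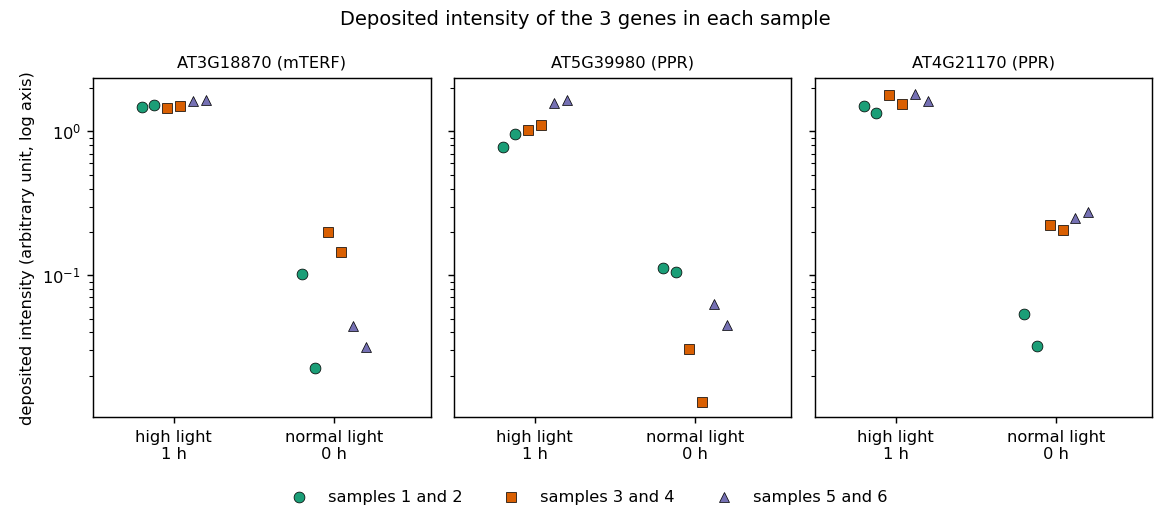
Deposited intensity (arbitrary unit, log axis) of the 3 genes in each of 6 high light and 6 normal light samples, with 1 point per sample and 1 colour and shape for each pair of neighbouring sample numbers. All high light points lie above all normal light points, and neighbouring numbers often lie close together, as for AT5G39980 in high light, where samples 5 and 6 stand at 1.57 and 1.65.

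The differences are given without a test, because the 3 genes were picked for them. Among the 2233 probes above 0 in all 12 samples, AT3G18870 had the 6th largest log2 rise, AT5G39980 the 8th and AT4G21170 the 19th. Over all 3439 probes, including those with a 0 set to the lowest positive value, the 3 genes ranked at 565, 615 and 699, and over the 692 single-gene probes at 118, 131 and 147. The size of each ratio rests on the normal light samples, where the probes were dim. In 2 of the 6 normal light samples AT3G18870 was above the median probe of its sample, AT5G39980 in 0 of 6 and AT4G21170 in 4 of 6. In high light each of the 3 was above the 75th percentile of its sample in 6 of 6 samples.

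Ranks within the array need no scaling. Quantile-normalised values follow from these ranks, so the ranks are another description of the same values and no separate support. The probe of AT3G18870 lay between percentiles 88.9 and 90.1 of its sample in high light, against 19.1 and 62.6 in normal light. That of AT5G39980 lay between 78.1 and 89.7 in high light, against 17.2 and 49.5 in normal light. That of AT4G21170 lay between 88.5 and 91.1 in high light, against 22.0 and 69.6 in normal light. In high light all 3 probes thus lay far up in the array, and those of AT3G18870 and AT4G21170 hardly moved from sample to sample. These ranks order probe signals, and they do not compare transcript levels between genes.

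**Figure D2:**
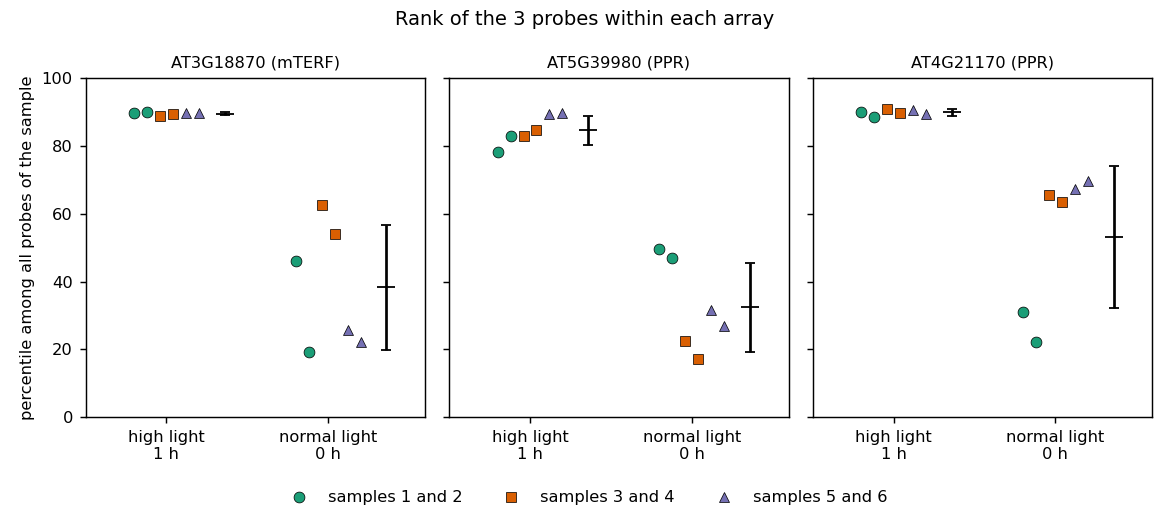
Percentile of the 3 probes among all 3439 probes of each sample, with 1 point per sample and the mean with its SD (n = 6) beside the points of each group. The high light ranks lie between 78.1 and 91.1 for the 3 genes and the normal light ranks between 17.2 and 69.6, with a wide spread.

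The spread between samples was unequal on the log2 scale of the normalised values. In high light the SD of AT3G18870 was 0.060, that of AT4G21170 0.13 and that of AT5G39980 0.411. Over the 422 single-gene probes above 0 in every sample, the median SD in high light was 0.291, with quartiles of 0.195 and 0.44. The first pair of genes therefore varied less than the lower quartile, and AT5G39980 more than the median. In normal light the SDs were 0.93 for AT3G18870, 0.997 for AT4G21170 and 0.733 for AT5G39980, where the median of the same probes was 0.428 and the 90th percentile 0.871. AT3G18870 and AT4G21170 were thus among the steadier probes in high light and above the 90th percentile of spread in normal light. The 422 probes were not matched for brightness, and these genes had bright probes in high light and dimmer ones in normal light. Whether the contrast in spread goes with brightness was not tested.

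Scaling moved the sizes but not the directions. On the deposited scale the log2 differences were 4.51 (SE 0.503) for AT3G18870, 4.54 (SE 0.494) for AT5G39980 and 3.59 (SE 0.530) for AT4G21170, and the median of all probes was 1.47 there. With all samples brought to a common median they were 3.02, 3.05 and 2.10 in the same order of genes, and with cyclic loess 3.34, 3.24 and 2.57. The median of all probes was 0.16 after quantile normalisation, 0.18 after cyclic loess and 0.014 at a common median. On each of the 4 scales, then, the 3 genes lay at least 2 log2 units above the median probe.

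**Figure D3:**
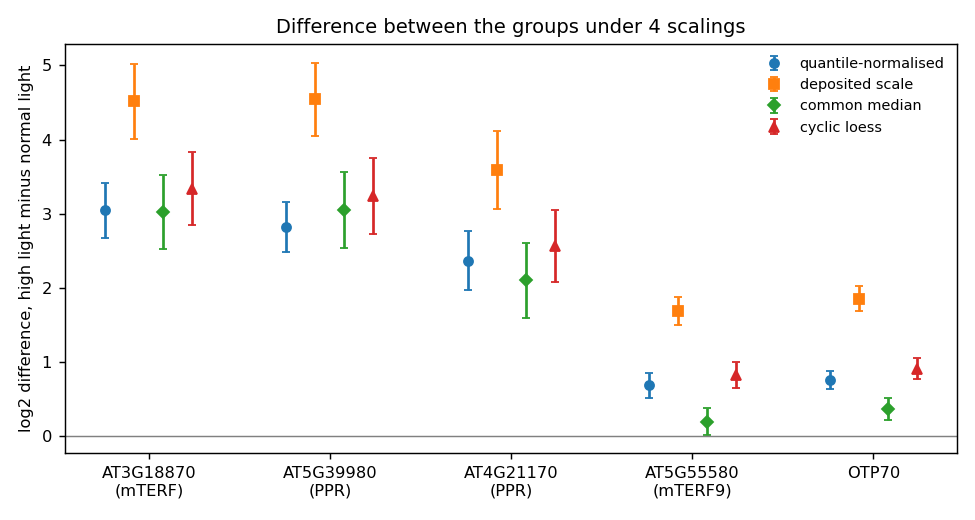
Log2 difference (high light minus normal light) with its SE from limma under 4 scalings, for the 3 genes and for mTERF9 and OTP70, with 6 samples in each group. The 3 genes lie between 2.10 and 4.54, and the other 2 genes between 0.20 and 1.85. The 3 genes were chosen for their rise, so the gap to the other 2 says little about the families.

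Few other genes of this machinery could be named. Of 47 loci listed for sigma factors, organelle RNA polymerases, proteins of the plastid-encoded polymerase complex, chloroplast ribonucleoproteins, RNases, elongation factors and splicing factors, 1 had a single-gene probe. The RefSeq names held 1 more mTERF gene, AT5G55580 (mTERF9). A further 3 genes were added after the probe names were known, OTP70, CRR21 and OTP85, which encode PPR proteins. Other PPR genes may be among the single-gene probes, since the tables used here give names and no descriptions. Of these 5 genes, 2 passed the test as higher and 0 as lower in high light, and the other 3 did not pass (limma, adjusted p under 0.05 over all 3439 probes). At an unadjusted p under 0.05 the counts were 3 higher and 0 lower. Over all probes 37.8% were called, 15.8% higher and 22% lower in high light. With 5 genes, 2 called as higher are too few to set against these shares. They say nothing particular about these genes.

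AT5G55580 (mTERF9), a plastid member of the mTERF family, had deposited intensities of 0.895, 1.15 and 1.46 in high light, against 0.286, 0.352 and 0.522 in normal light, as lowest, median and highest. The deposited values did not overlap, but the normalised ones did. Its quantile-normalised log2 value rose by 0.69 (limma, SE 0.167, adjusted p = 0.0069). The call was lost with a common median (0.20, adjusted p = 0.39) and when neighbouring sample numbers (1 with 2, 3 with 4, 5 with 6) were averaged (adjusted p = 0.10).

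OTP70 (AT4G25270), which in Arabidopsis takes part in the splicing of a plastid transcript, had 0.935, 1.04 and 1.13 in high light, against 0.203, 0.3002 and 0.385 in normal light, in the same order. Neither the deposited nor the normalised values overlapped. It rose by 0.76 on the log2 scale (limma, SE 0.118, adjusted p = 4.2e-04), and its call was lost with a common median (0.36, adjusted p = 0.075). With neighbouring numbers averaged it stayed called (adjusted p = 0.039).

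CRR21 (AT5G55740), an editing factor of a plastid NADH dehydrogenase transcript, was listed at 0 in high light samples 1 and 2 and stood at 0.363, 0.493, 0.447 and 0.493 in samples 3 to 6. In normal light it stood at 0.139, 0.166, 0.05004, 0.216, 0.175 and 0.148 in samples 1 to 6. The 4 high light samples above 0 lay over every normal light sample as deposited, and the 2 at 0 lay under them. After normalisation those 4 lay between 0.254 and 0.348, within the normal light range of 0.115 to 0.368. The gene did not pass the test (limma, log2 difference -4.77, adjusted p = 0.24). The size of this difference depends on the value given to a 0. It was -1.70 when an offset was added and -0.63 when values under 0.05 were raised to 0.05.

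OTP85 (AT2G02980), also a plastid editing factor, had 0.420, 0.530, 0.272, 0.418, 0.345 and 0.515 in high light samples 1 to 6. In normal light it had 0.204 in sample 1, 0.0290 in sample 2 and 0.0170 in sample 5, and was listed at 0 in samples 3, 4 and 6. The deposited values did not overlap, while normal light sample 1 reached into the high light range after normalisation. It did not pass the test (limma, adjusted p = 0.054). It passed, as higher in high light, without normal light sample 1 (adjusted p = 0.018), 2 (0.033) or 5 (0.036), and under the 3 other scalings.

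AT4G29750, the gene found from the list of 47 loci, stood there among the splicing factors and has no symbol in the RefSeq table. It was dim in both groups, with 0.0195 to 0.174 in high light and 0 to 0.0799 in normal light, and the groups overlapped. It did not pass the test (limma, log2 difference 0.28, adjusted p = 0.93). Without normal light sample 3, the one at 0, the difference was -1.98 and was called (adjusted p = 0.045). The direction also turned without high light sample 6 (-0.12) and, with all samples, when an offset was added (-0.96) or values under 0.05 were raised to 0.05 (-0.75).

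**Figure D4:**
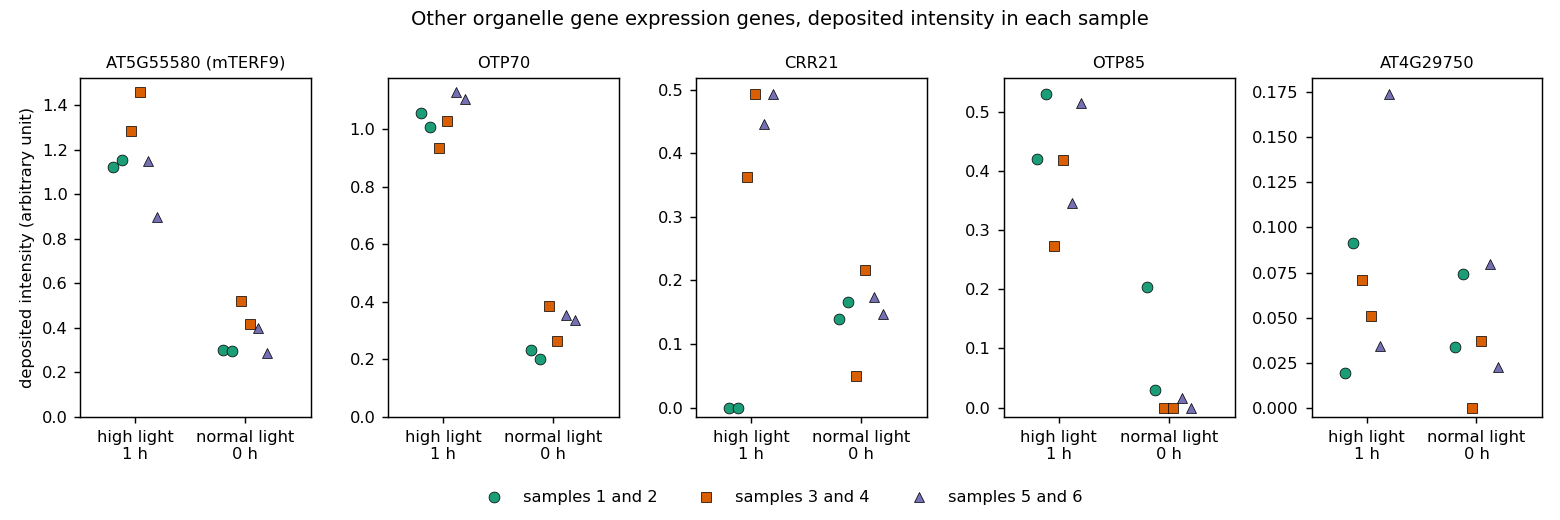
Deposited intensity (arbitrary unit, linear axes that differ between panels) of mTERF9, OTP70, CRR21, OTP85 and AT4G29750 in each of 6 high light and 6 normal light samples, with 1 point per sample. CRR21 stands at 0 in high light samples 1 and 2, and OTP85 at 0 in 3 normal light samples.

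Samples with neighbouring numbers were often alike for the 3 genes. In high light the higher sample of a pair was 1.02 to 1.24 times the lower one for all 3 genes and all 3 pairs. All 6 high light samples lay between 1.47 and 1.65 for AT3G18870 and between 1.33 and 1.83 for AT4G21170. Small ratios in high light therefore say little about pairs for these genes. In normal light this ratio was 1.07 to 2.32, with the exception of AT3G18870 in samples 1 and 2, at 4.48. For AT4G21170 the normal light pairs had means of 0.0429, 0.215 and 0.262, and for AT5G39980 of 0.109, 0.0219 and 0.0541, for samples 1 and 2, 3 and 4, and 5 and 6. If the pairs are repeat measurements, each group holds 3 independent samples. Averaging them leaves the log2 differences as they are and widens the SEs to 0.477 for AT3G18870, 0.494 for AT5G39980 and 0.589 for AT4G21170.

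The probes most like each gene were sought by the Pearson correlation of normalised log2 values over the 12 samples, among the other 421 single-gene probes above 0 in every sample. This measure takes in the difference between the groups, so it mostly finds probes that were higher in high light, and it is given without a test. For AT3G18870 these were AT5G42680 (0.96), AT1G78620 (0.954) and AT3G61540 (0.941). For AT5G39980 they were THIC (0.976), an enzyme of thiamine synthesis in plastids, AT2G27290 (0.959) and AT4G27510 (0.948). For AT4G21170 they were AT4G31530 (0.973), AT2G46630 (0.97) and AT2G15440 (0.951). The lists of the 3 genes shared no member.

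With the group means taken out, the likeness was lower for AT3G18870, at 0.62 to 0.68, than for AT5G39980, at 0.711 to 0.854, or AT4G21170, at 0.789 to 0.902. Of these 9 probes, AT4G31530 had the highest value, 0.902 to AT4G21170. The correlations of AT4G21170 rest mostly on normal light, where its log2 SD was 0.997, against 0.13 in high light. In normal light its samples 1 and 2 were the low ones. AT4G31530 was also low there, at 21.3 and 19.4 as deposited, against 32.9 to 37.7 in samples 3 to 6. Probes other than these 9 were not ranked by this correlation. All 9 had smaller log2 differences than the gene they resembled, from 0.91 for AT2G15440 to 2.19 for AT2G27290. The genes they resembled were chosen for their rise, so this says little about the 9 probes. With a common median AT4G31530 turned to -0.21, while the other 8 stayed above 0. In high light sample 4, AT4G31530 stood at about 100, the top of the deposited range.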

How the data were processed

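The deposited values are array intensities on a linear scale. The steps from scan to these values (background, scaling, filters) are not given in the sources used here. Each sample's group and number came from its title. Probe names came from the platform annotation, updated through gene identifiers to the RefSeq table of TAIR10.1, which 690 of the 692 single-gene probes matched. No sequences are shown.

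Because column medians differed by more than a factor of 1.1, values were quantile-normalised. Each 0 was afterwards replaced by the smallest value above 0, 9.02e-06. R 4.3.3 and limma 3.58.1 (lmFit, then eBayes, 2-sided, 6 against 6) were used on the log2 values, with Benjamini-Hochberg adjustment over 3439 probes and a threshold of 0.05. On simulated data of this comparison over 3439 probes, 57% of log2 changes of 1 and 87% of changes of 2 were recovered, with 8 false calls. The simulated samples were independent and held no difference in medians. All of them had the SDs of normal light, and a far smaller share of probes was changed than the 37.8% called in the data. The recovered shares may therefore differ from those in the data. Changes were placed only in probes above 0 in every normal light sample, so recovery at probes with a 0 there was not measured.

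The genes and lists were chosen with earlier results of these data known. Named genes are the 3 genes, all other PPR and mTERF genes that could be named, called genes of the organelle list and the 3 probes most like each gene. AT4G29750, CRR21 and OTP85 are given although they were not called. Alternatives were 3 other scalings, an offset, a floor, a filter on dim probes, limma's trend and robust settings, averaged neighbouring numbers, sample numbers as a block and each sample left out. No slide or scan date was given, so none was fitted as a block. The number of arrays limits the precision.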

Additional observations from a re-analysis of the deposited data

Results flagged for a closer look

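Of 31 groups of 6 values above 0, 1 held a sample that stood apart. Chance flags about 1 in 20 such groups. For CRR21 (AT5G55740), normal light sample 3 was at 0.115 after normalisation, and the other 5 were between 0.261 and 0.368. The gap to the nearest sample was 0.705 of the whole range on the log2 scale. Groups with a value of 0 were not examined in this way.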

How the results depend on the processing

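The log2 differences of the 3 genes moved by more than the SD between samples on the deposited scale only, to 4.51 for AT3G18870, 4.54 for AT5G39980 and 3.59 for AT4G21170, where the median of all probes was 1.47. Leaving out 1 sample gave 2.83 to 3.28, 2.62 to 2.9989 and 2.06 to 2.52 in the same order. Over all probes limma called 1300 (543 higher, 757 lower), 759 with neighbouring numbers averaged (330 higher, 429 lower), and 1191 to 1322 with 1 sample left out. A common median gave 391 higher and 911 lower probes, and the deposited scale 1698 higher and 194 lower. Of the 5 other organelle genes, the 2 called ones became 1 with a common median and 1 with neighbouring numbers averaged, and 2 to 3 with 1 sample left out. OTP85 (AT2G02980) became called on the deposited scale (9.29, adjusted p = 0.014), with a common median (8.25, 0.043), cyclic loess (4.94, 0.031), an offset (3.41, 0.018) and a floor of 0.05 (1.84, 0.0063) in limma, and with trend and robust settings at an unchanged difference (8.05, 0.044). Its differences were smallest with the offset and the floor, the settings that raise the value given to a 0. AT4G29750 turned to -0.96 with an offset, -0.75 with the floor, -0.12 when high light sample 6 was left out and -1.98 when normal light sample 3 was, with a range of -1.98 to 0.85 over the 12 samples left out in turn. Without the dimmest 25% of probes, OTP85 and AT4G29750 were not fitted. The cause of the changes was not tested.

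Equal sample numbers showed no clear likeness across the groups: over all probes, the deviations from the group means had correlations of -0.0063 to 0.065. Probes with a 0, set to the lowest positive value, weigh heavily in these correlations. They therefore cannot exclude pairs among the other probes. With the numbers as a replicate block, limma called 1195 probes (490 higher, 705 lower), the same 2 of the 5 organelle genes passed, and the 3 log2 differences stayed at 3.04, 2.82 and 2.37.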
